A study of Mus musculus with 4 samples.

Results

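The 91 cells described here were Epcam-positive thymic cells rich in the chemokine transcript Ccl21a and in the basal keratins Krt5 and Krt14, written below as Ccl21a keratin-high cells. They were chosen by their own counts, from 13981 called barcodes of 4 single-cell RNA-seq libraries of CD45-negative mouse thymus. A cell was kept when it had over 1000 detected genes and under 20% of its unique molecular identifiers (UMIs, 1 per captured RNA molecule) from mitochondrial genes. It also needed at least 1 Epcam UMI, at least 10 Ccl21a UMIs per 10000 UMIs of the cell, and at least 5 UMIs of Krt5 and Krt14 together. Finally, it had to have 0 UMIs of each of Aire, Fezf2, Otog, Ptprc and Pdgfra. The limits on genes and mitochondrial UMIs were passed by 10245 barcodes, and 3641 of these were Epcam-positive. The wild-type libraries gave 19 (WT 1) and 6 (WT 2) of the 91 cells, and the mutant libraries 38 (Z/Z 1) and 28 (Z/Z 2).

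The medulla of the thymus is the region where thymocytes that have passed positive selection are screened against self-antigens. Part of its epithelium presents tissue-restricted antigens under Aire and Fezf2, while another part, with keratins of a basal epithelium and low expression of antigen-presentation genes, secretes CCL21. CCL21 is the ligand of the receptor CCR7, through which thymocytes are drawn from the cortex to the medulla. Cells of this second kind are called mTEC1 or mTEC low, and several lineage studies place medullary precursors among them.

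The mice were untreated C57BL/6 animals of 6 months. In the mutant group (Z/Z), both copies of Foxn1, which encodes the transcription factor on which thymic epithelium depends, carried a LacZ insertion that lowers its expression. The control group, called mock by the submitters and WT here, was wild type, and each group had 2 libraries. Each library came from the pooled thymi of several mice, which were digested, depleted of CD45-positive cells on magnetic beads and then sorted. A library is therefore a pool and not 1 animal, and nothing in the labels says that the libraries of a group came from separate pools, so p-values measure the spread between libraries, which may be technical. The characteristics give the mice as male and the protocol as female. The position of the LacZ cassette within Foxn1 was not stated in the sources read, and it is open what 3′ tags of Foxn1 say of the mutant allele.

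The libraries differed in depth and in quality. They held 8468086 to 50705511 UMIs, with sequencing saturation of 65.2% to 95.2%. The limits on genes and mitochondrial UMIs were passed by 55.5% and 39.8% of called barcodes in WT 1 and WT 2 and by 83.4% and 80.4% in Z/Z 1 and Z/Z 2. Called barcodes were shared by 202 pairs between WT 1 and WT 2 and by 249 between Z/Z 1 and Z/Z 2, against 0 to 6 between libraries of different genotype. Of the 91 cells, 6 had a barcode that was also called in another library, 2 of them from WT 2, 3 from Z/Z 1 and 1 from Z/Z 2. The sums over the cells came to 218149 and 95936 UMIs for WT 1 and WT 2, and to 571263 and 370127 for Z/Z 1 and Z/Z 2, so the WT side rested on fewer molecules and WT 2 on 6 cells. All levels below are UMIs per 1000000 UMIs of these sums (CPM), which contain ribosomal protein transcripts. Since they are levels per sum of cells, fewer expressing cells and less RNA per cell cannot be told apart in them.

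The Ccl21a limit was met by 358 Epcam-positive cells, and 181 of these also had 5 or more keratin UMIs. Of those 181, 72 had a Fezf2 UMI, 22 a Ptprc UMI, 19 an Aire UMI, 12 an Otog UMI and 5 a Pdgfra UMI, with some cells counted under more than 1 gene. Of the 358 cells, 96 had no keratin UMI at all, among them 38 cells of Z/Z 1 and 52 of Z/Z 2. The keratin limit cut through a continuous range, since 24 otherwise eligible cells with 3 or 4 keratin UMIs stood just outside and 16 of the 91 cells had only 5 or 6. Within the 91 cells the Ccl21a level ran from 10.1 to 659 UMIs per 10000, with a median of 80.6, and the keratin sum from 5 to 267 UMIs, with a median of 16. Both keratins were detected in 70 cells, while 17 lacked Krt14 and 4 lacked Krt5. Depth per cell was similar in the 4 libraries, with median totals of 10432 and 11562 UMIs in WT 1 and WT 2 and of 12429 and 10980.5 UMIs in the mutant libraries. Where 4 values follow each other below without names, the WT libraries come first and the Z/Z libraries second, each by replicate number.

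**Figure D1:**
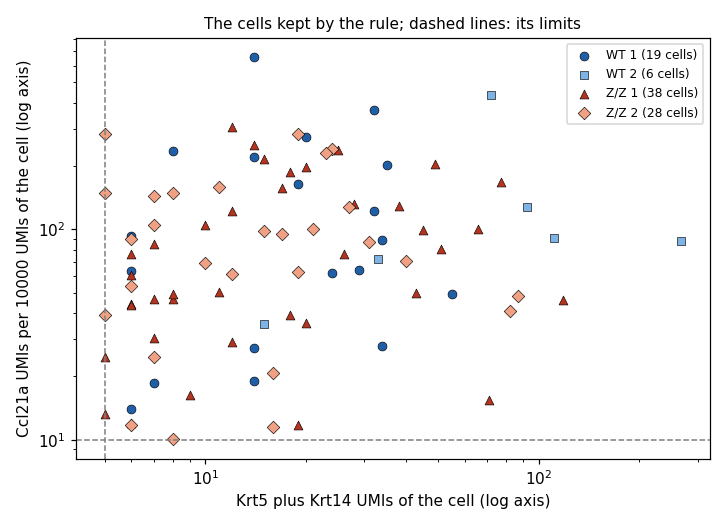
Each point is 1 of the 91 cells, with its Krt5 plus Krt14 UMIs on the horizontal axis and its Ccl21a UMIs per 10000 on the vertical axis, both logarithmic. The dashed lines are the limits of the rule, and the lowest keratin sums are 6 in WT 1, 15 in WT 2 and 5 in Z/Z 1 and Z/Z 2.

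Ccl21a (ENSMUSG00000094686) lies on chromosome 4, at chr4:42772860-42773993 on the minus strand of GRCm38, in a cluster of near-identical copies. Its 870-base transcript differs at 6 positions from that of Gm21541, which RefSeq calls Ccl21d, and at 5 of 837 compared bases from that of Gm13304. The shorter models of Ccl21b and Gm10591 each differ at 2 of 402 bases. The 91 cells held 2613, 1194, 5450 and 3621 UMIs assigned to Ccl21a in WT 1, WT 2, Z/Z 1 and Z/Z 2, but 3, 3, 4 and 0 assigned to Gm21541 and 1 in all assigned to Gm13304. How well reads of the copies were separated in the authors' counting was not tested. The similarity of Ccl21a to Ccl21d, Gm13304 and Gm10591 extends upstream of the genes, and the sequences of the 120 bases before the RefSeq start are shown because they hold the promoters of the transcript that the cells were selected on. Capitals mark the positions at which the copies differ, and Gm10591 has the same bases as Gm13304. The windows are chr4:42773992-42774111 on the minus strand for Ccl21a, chr4:41903492-41903611 on the plus strand for Ccl21d and chr4:42114666-42114785 on the plus strand for Gm13304, all on GRCm38 and taken from RefSeq.
Ccl21a: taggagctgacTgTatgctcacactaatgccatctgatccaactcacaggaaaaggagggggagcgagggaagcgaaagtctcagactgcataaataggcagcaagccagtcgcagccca
Ccl21d: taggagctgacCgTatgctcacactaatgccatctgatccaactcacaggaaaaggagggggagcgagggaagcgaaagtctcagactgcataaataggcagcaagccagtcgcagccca
Gm13304: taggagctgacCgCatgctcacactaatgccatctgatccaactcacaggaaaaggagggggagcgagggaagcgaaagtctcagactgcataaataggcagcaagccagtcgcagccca
Ccl21d differs from Ccl21a at 1 of these 120 bases and Gm13304 at 2. The RefSeq window of Ccl21b, chr4:42173001-42173120, differed at 79 of 120 bases without alignment and is not printed. It lies apart from the Ccl21b model whose transcript was compared above, at chr4:42255767-42256432, so it says nothing of the bases before that copy.

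The label mTEC1 was checked against 5 markers, of which Ccl21a, Krt5 and Krt14 had chosen the cells and could not be evidence for it. Ccl21a stood at 11978 and 12446 CPM in WT and 9540.3 and 9783 CPM in Z/Z. Krt5 (chromosome 15) stood at 1086 and 2585 CPM in WT and 1003 and 848 CPM in Z/Z, and Krt14 (chromosome 11) at 761 and 3565 CPM against 609 and 611 CPM. WT 2, with 6 cells, was the highest library for both keratins, and 1 cell gave 52.0% of its Krt5 UMIs. The remaining markers did not set the cells apart. Itgb4, the laminin-binding integrin subunit of hemidesmosomes, had 36.7 and 83.4 CPM in WT and 110 and 100.0 CPM in Z/Z. The other Epcam-positive cells of the same libraries had 43.0, 26.3, 77.2 and 77.5 CPM. Those cells are a mixture of classes without Ptprc and Pdgfra UMIs, and their sums also held immunoglobulin transcripts, given below. Ly6a, which encodes the surface protein Sca-1, had 587, 459, 315 and 554 CPM, against 396, 317, 368 and 548 CPM in the other Epcam-positive cells and 771, 512, 590.4 and 753 CPM in Pdgfra-positive mesenchyme. In barcodes under 100 UMIs, which hold free RNA, Ly6a had 288, 149.7, 404 and 515 CPM. In addition, 7 of the cells, 6 of them from WT, held 20 or more UMIs of cortical genes, which in 2 of the 7 were nearly all Tbata. For these reasons the cells are called by their leading genes and not mTEC1.

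Cd80, a costimulatory ligand of mature mTECs, had 4.58, 10.4, 5.25 and 8.11 CPM in WT 1, WT 2, Z/Z 1 and Z/Z 2, against 336, 499, 170 and 182 CPM in Epcam-positive cells with an Aire or Fezf2 UMI. Cells with a Ptprc or Pdgfra UMI were left out of that population. Trp63, the transcription factor of basal epithelia, had 206, 469, 191 and 119 CPM, against 91.5, 63.9, 84.5 and 60.4 CPM in the Aire or Fezf2 cells, and the 2 populations did not overlap. The Aire and Fezf2 cells differ from the 91 cells partly by the rule, so this is a description without a test. Of 12 genes listed for mature mTECs (mTEC2), Irf8 and Tnfrsf11a were the ones expressed enough to be tested. Irf8, an interferon regulatory factor, had 68.8, 271, 105 and 116 CPM, and Tnfrsf11a, the RANK receptor, 77.9, 125.1, 145 and 78.4 CPM.

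Beyond the genes of the rule, 17 of 1176 genes with at least 100 CPM in the cells of every library stood at 2 or more times the level of the other Epcam-positive cells in all 4 libraries. They were selected on this difference after their values were seen, so no test was made. The highest of them by its lowest ratio was Ryr3, a calcium release channel of the endoplasmic reticulum, at 605 and 1022 CPM in WT and 224 and 205 CPM in Z/Z, 3.81 to 7.16 times the other Epcam-positive cells. Ryr3 UMIs came from only 8 of 19, 4 of 6, 14 of 38 and 11 of 28 cells. A single cell gave 42.4%, 52.0%, 53.1% and 23.7% of them in WT 1, WT 2, Z/Z 1 and Z/Z 2. Between genotypes its log2 fold change was -1.86 (SE 0.34, edgeR adjusted p = 0.108), and DESeq2 called it lower in Z/Z (adjusted p = 0.00456). Gem and Rrad, Tpm2 and Cald1 also belonged to the 17. Gem, a GTPase that restrains calcium channels, had 802, 709, 786 and 997 CPM at ratios of 2.65 to 4.62, and Rrad, its relative, had 646, 302, 707 and 1100 CPM at ratios of 2.42 to 4.86. Tpm2, a tropomyosin, and Cald1, caldesmon, which both bind actin filaments, exceeded the other cells by 2.31 to 7.44 and 2.02 to 6.10 times.

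Among the others, C3, the central complement component, had 344, 208, 240 and 416 CPM, 2.31 to 3.73 times the other Epcam-positive cells. Fst, follistatin, which binds activins, had 261, 177, 140.0 and 151 CPM at ratios of 2.01 to 13.1, and Gpx3, a secreted glutathione peroxidase, 371, 146, 229 and 354 CPM at ratios of 2.46 to 4.22. Robo1, a Slit receptor, had 857, 625, 802 and 494 CPM, and Lpar1, a receptor of lysophosphatidic acid, 348, 354, 277 and 286 CPM. Rbfox1, Csmd1 and Dpp6 belong to the same 17. They are very long genes, and the authors' counts contain intronic reads.

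**Figure D2:**
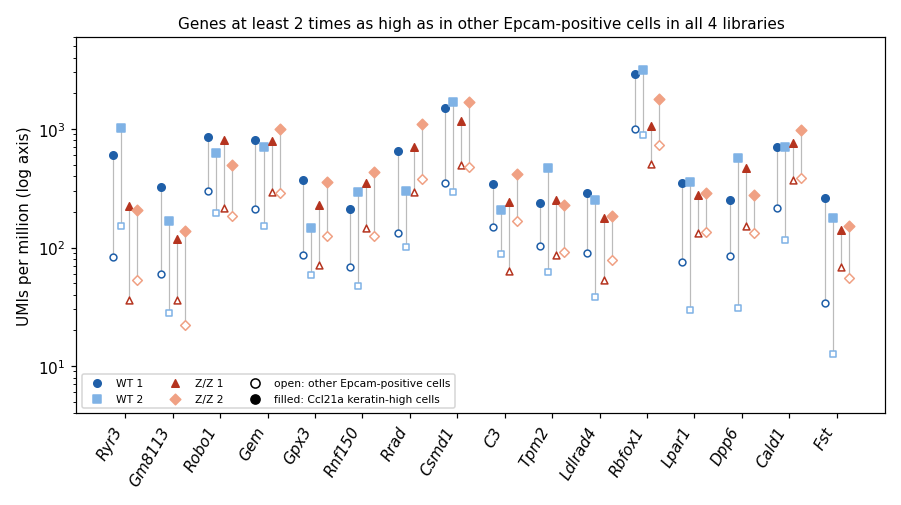
For 16 of the 17 genes, filled symbols give the CPM of the Ccl21a keratin-high cells and open symbols that of the other Epcam-positive cells of the same library, on a log axis, joined by a line. The filled symbol is at least 2 times the open one in every pair, which is how the genes were chosen.

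Fewer genes were low in the cells. With 100 or more CPM in the other Epcam-positive cells of every library as the limit, 14 of 1294 genes stood at 0.5 times or less in all 4. Ighm, Jchain and Igkc, which encode immunoglobulin chains, led them, with 0 to 52.5 CPM in the Ccl21a keratin-high cells and 190 to 34026 CPM in the other cells. Igkc had 613, 34026, 8780 and 6276 CPM there, so the RNA of the other cells was not all epithelial, to a degree that differed by library. The source of these transcripts was not tested. Cldn7, a tight-junction claudin, had 9.17, 0, 35.0 and 40.5 CPM against 365, 309, 156 and 189 CPM. Reg3g, a secreted antibacterial lectin, had 4.58, 31.3, 50.8 and 2.70 CPM against 513, 208, 258 and 254 CPM.

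Lifr, the receptor subunit for leukaemia inhibitory factor, had 568, 552, 536 and 594 CPM in WT 1, WT 2, Z/Z 1 and Z/Z 2, against 221, 103, 305 and 241 CPM in the other Epcam-positive cells. Cd74, the invariant chain of MHC class II, had 7128, 8891, 8044 and 8354 CPM. Ifitm3, an interferon-induced membrane protein, had 4144, 3940.1, 3336 and 3888 CPM, and Il7, the thymocyte survival cytokine, 133, 271, 193 and 162 CPM. Among 12 cell-cycle genes only Pcna, the DNA polymerase clamp, was expressed enough to be tested, and the 12 together had 59.6, 83.4, 91.0 and 91.9 CPM.

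The first comparison between genotypes asked whether Ccl21a keratin-high cells took a different share of the epithelium in Z/Z. They were a smaller share of Epcam-positive cells in both Z/Z libraries, but an exact permutation test of 2 libraries against 2 cannot reach a p of 0.05. The share was 3.37% in WT 1 (19 of 564 cells, 95% Clopper-Pearson interval 2.04% to 5.21%), 4.17% in WT 2 (6 of 144, 1.54% to 8.85%), 2.48% for Z/Z 1 (38 of 1534, 1.76% to 3.38%) and 2.00% for Z/Z 2 (28 of 1399, 1.33% to 2.88%). The intervals overlap, and they cover counting error only. The means were 3.77% ± 0.564 (SD, n = 2) and 2.24% ± 0.336 (SD, n = 2), and the difference of -1.53 percentage points had an exact two-sided permutation p of 0.333, the smallest this design allows. The share depends on digestion and sorting, and on the Ccl21a and keratin limits, which act on cells of different depth. The other Epcam-positive cells had median totals of 20638 and 18938 UMIs in the WT libraries and of 8337 and 8370.0 in the mutants. With the rule applied to cells thinned to 3000 UMIs the difference was -1.66 points, and with all kept cells as the denominator it was -0.462 points. The 7 cells with 20 or more cortical UMIs were counted in. Without them 15, 4, 37 and 28 cells remained, and their part in the difference was not tested. The Ccl21a limit alone was met by 55 of 564, 8 of 144, 132 of 1534 and 163 of 1399 Epcam-positive cells. With the keratin limit added, 41, 7, 63 and 70 remained. At neither step were both Z/Z libraries below both WT libraries, so the lower share belongs to the full rule.

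**Figure D3:**
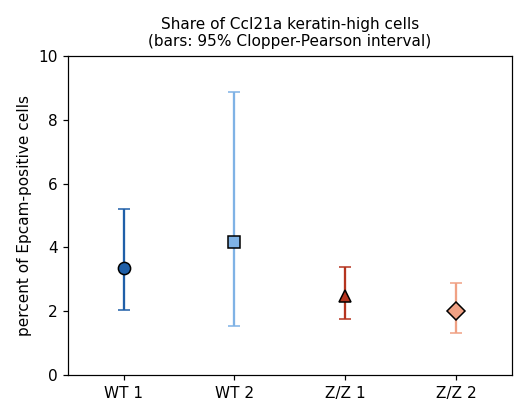
Ccl21a keratin-high cells as a percent of Epcam-positive cells, 1 point per library, with the 95% Clopper-Pearson interval as the bar. The Z/Z points, 2.48% and 2.00%, lie below the WT points, 3.37% and 4.17%, and all 4 intervals overlap.

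The second comparison asked which transcripts of the cells differed between genotypes. In UMI sums per library, 0 of 5002 genes (0.0%) passed an adjusted p of 0.05 by edgeR's quasi-likelihood test, and the smallest adjusted p was 0.0665, shared by 6 genes. At an unadjusted p under 0.05, 243 genes were higher in Z/Z (4.86% of those tested) and 245 lower (4.9%). The groups did not overlap for 1034 genes higher in Z/Z (20.7%) and 1101 lower (22.0%). DESeq2 called 16 of the 3072 genes for which it gave an adjusted p (0.521%), 6 higher and 10 lower. Counts of list members below are read against these percentages, and the median log2 fold change over all genes tested was 0.01. Without WT 1, 85 genes passed in each direction, without WT 2, 117 higher and 123 lower, and without Z/Z 2, 23 higher and 19 lower. The lone library of a group was then assumed to vary like the others.

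The mutated gene itself, Foxn1 (ENSMUSG00000002057), is read from the minus strand of chr11:78357577-78386558 on GRCm38. It had 17 and 9 UMIs in WT and 24 and 19 in Z/Z, or 77.9 and 93.8 CPM against 42.0 and 51.3 CPM. Both Z/Z libraries were lower, with a log2 fold change of -0.82 (SE 0.41, edgeR adjusted p = 0.546). All 9 UMIs of WT 2 came from 1 cell, which was one of 7 cells with many cortical transcripts described next. Without those 7 cells the WT libraries kept 7 and 0 UMIs and the log2 fold change was 0.62 (SE 0.71). Foxn1 had 77.0 and 105 CPM in WT and 44.9 and 58.6 CPM in Z/Z in the other Epcam-positive cells, and 14.7 to 22.2 CPM in barcodes under 100 UMIs.

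Genes of cortical epithelium were far lower in the Z/Z cells, and this difference rested on a few WT cells. Ccl25, a chemokine of the cortex and a direct target of Foxn1, had 316 and 938 CPM in WT and 8.75 and 24.3 CPM in Z/Z (log2 fold change -5.22, SE 0.64, edgeR adjusted p = 0.0665). Prss16, the thymus-specific serine protease, had 220.0 and 740.1 CPM against 10.5 and 29.7 CPM (-4.53, SE 0.66, adjusted p = 0.0665). Tbata, a stromal regulator of thymic epithelial growth, had 408 and 1574 CPM against 54.3 and 8.11 CPM (-4.77, SE 0.77, adjusted p = 0.0872). Ctsl, the protease that processes the invariant chain in cortical epithelium, had 2562 and 2960.3 CPM against 1432 and 1275 CPM (-0.99, SE 0.26, adjusted p = 0.224). Psmb11, the cortical proteasome subunit, had 41.3 and 73.0 CPM in WT and was at 0 in both Z/Z libraries. Of the 10 genes of the cortical list, 7 were tested. All 7 were lower without overlap (all genes, 22.0%), all 7 had an unadjusted p under 0.05 (all genes, 4.9%), and their median log2 fold change was -4.53.

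The UMIs of Psmb11, Prss16, Ccl25 and Tbata were counted in each of the 91 cells. They came to 215 for WT 1 and 319 for WT 2, but to 42 for Z/Z 1 and 23 for Z/Z 2. In WT 1, 4 of 19 cells with 20 or more such UMIs held 92.1% of them, and in WT 2, 2 of 6 cells held 99.7%. One further cell of this kind, with 27 UMIs, was in Z/Z 1, and none was in Z/Z 2, where the highest cell had 9. The highest cell of all, in WT 2, had 267 of these UMIs, 30110 UMIs in total, no Krt14 UMI and a barcode called in another library too. In 2 of the 7 cells the count was nearly all Tbata, 51 of 51 UMIs in the second WT 2 cell and 26 of 27 in the Z/Z 1 cell. Psmb11 and Ccl25 were at 0 in both. That WT 2 cell had 437 Ccl21a UMIs per 10000, 32 Krt5 and 40 Krt14 UMIs, so the cortical label of these 2 cells rests mainly on 1 gene. With these 7 cells left out, a choice made after the data were seen, Ccl25 had 17.9 and 0 CPM in WT and 9.03 and 24.3 CPM in Z/Z, and Prss16 had 35.8, 18.3, 9.03 and 29.7 CPM. The groups then overlapped for both genes, and the log2 fold change of Ctsl was -0.35 (SE 0.28). Only 3 of the cortical genes remained testable, with a median of -0.04, and with cells of shared barcodes left out 4 did, with a median of -0.87. The doublet score marked 2 of the 91 cells, both in Z/Z 1, and thus none of the 6 WT cells with many cortical UMIs. The part of doublets in these values was otherwise not tested. With the 7 cells left out, 4592 genes were tested, 0 passed, and the smallest edgeR adjusted p was 0.277.

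**Figure D4:**
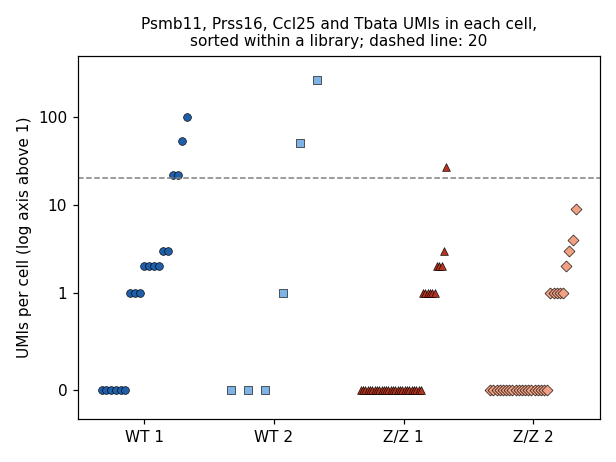
UMIs of Psmb11, Prss16, Ccl25 and Tbata together in each of the 91 cells, sorted within its library, on an axis that is logarithmic above 1. Above the dashed line at 20 UMIs lie 4 cells of WT 1, 2 of WT 2, 1 of Z/Z 1 and 0 of Z/Z 2.

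Several transcripts listed here for age-associated thymic epithelial cells (aaTECs), of which the study describes 2 kinds, had higher values in Z/Z without passing the threshold. Of 6 genes listed for the second kind, 5 were tested. All 5 were higher in Z/Z, 4 without overlap (all genes, 20.7%) and 3 at an unadjusted p under 0.05 (all genes, 4.86%), with a median log2 fold change of 1.35. The study's text names Pdpn for this kind, while Rgs4 was listed from earlier results of these same libraries, in which it was higher in Z/Z, so its direction is not independent evidence. The counts and the median of this list contain Rgs4, so they are a description and no evidence beyond the share over all genes. Rgs4, a regulator of G-protein signalling, had 45.8 and 188 CPM in WT and 653 and 365 CPM in Z/Z (log2 fold change 2.38, SE 0.56, edgeR adjusted p = 0.152), and passed under DESeq2 (adjusted p = 0.0156). In WT its UMIs came mostly from 1 cell of each library (80.0% and 72.2%), and the fold change was 1.57 without WT 1 and 3.48 without WT 2. Pdpn, the membrane glycoprotein podoplanin, had 91.7 and 219 CPM against 366 and 343 CPM (1.35, SE 0.41, adjusted p = 0.295), with 0.82 if WT 1 was left out. Both were lower in each WT library than in each Z/Z library. Plet1, a surface protein of early thymic epithelium on the list of the first aaTEC kind, had 18.3 and 0 CPM in WT and 133 and 91.9 CPM in Z/Z (3.18, SE 0.65, adjusted p = 0.119). The fitted value was 8.32 without WT 1, where the remaining WT library is at 0, so it is no measure of size. Its UMIs came from 2 of 19 and 0 of 6 cells in WT, and from 21 of 38 and 15 of 28 cells in Z/Z. Cldn3, whose protein the study uses to identify the first kind in flow cytometry and imaging, had 0 to 28.0 CPM in the 4 libraries and was not tested. In Z/Z 1, its highest library, 1 cell gave 12 of the 16 UMIs. Vim, the mesenchymal filament protein, had 22.9, 115, 84.0 and 21.6 CPM, and the groups overlapped.

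In the other Epcam-positive cells, Rgs4 rose by 3.26 on the log2 scale (SE 0.17, adjusted p = 0.0113), Pdpn by 2.59 (SE 0.19, adjusted p = 0.013) and Plet1 by 1.32 (SE 0.20, adjusted p = 0.0203) in the edgeR fit for those cells, in which 6.76% of genes passed as higher and 7.89% as lower. Those sums mix cell classes, so the numbers of cells in each class bear on them. Without the 7 cells high in cortical transcripts the fold changes in the Ccl21a keratin-high cells were 2.62 for Rgs4, 1.05 for Pdpn and 2.70 for Plet1.

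Other genes higher in Z/Z were of several kinds. Sorcs3, a neuronal sorting receptor, had 18.3 and 10.4 CPM in WT and 152 and 181 CPM in Z/Z (log2 fold change 3.40, SE 0.51, edgeR adjusted p = 0.0665), and was 1 of the 6 genes with the smallest adjusted p. Kctd16, a subunit that modulates GABA-B receptors, had 4.58 and 20.8 CPM against 91.0 and 246 CPM (4.06, SE 0.85, adjusted p = 0.12). Sorcs3 and Kctd16 were named after their values were seen, and both were among the 6 higher genes of DESeq2. Cdkn1a, the cell-cycle inhibitor p21, had 124 and 93.8 CPM in WT and 229 and 286 CPM in Z/Z (1.23, SE 0.35, adjusted p = 0.272), and all 6 tested genes of its list of D cyclins and inhibitors were higher, with a median of 0.66. Mt1, a metallothionein, had 853 and 1063 CPM against 1712 and 1689 CPM (0.88, SE 0.28, adjusted p = 0.311). Dclk1, a kinase of tuft cells, had 18.3 and 62.5 CPM against 123 and 91.9 CPM (1.72, SE 0.53, adjusted p = 0.295). The defining tuft genes Avil (9.17, 0, 12.3 and 48.6 CPM) and Pou2f3 (13.8, 0, 10.5 and 13.5 CPM) had too few UMIs for this comparison. Avil UMIs came from 1 and 0 cells in WT and from 5 and 10 cells in Z/Z, and Avil was tested in the third comparison below. Gm42418, which overlaps ribosomal RNA sequence, had 9457 and 7067 CPM in WT and 16597 and 20804 CPM in Z/Z (1.21, SE 0.24, adjusted p = 0.113), and its part in the other values was not tested.

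**Figure D5:**
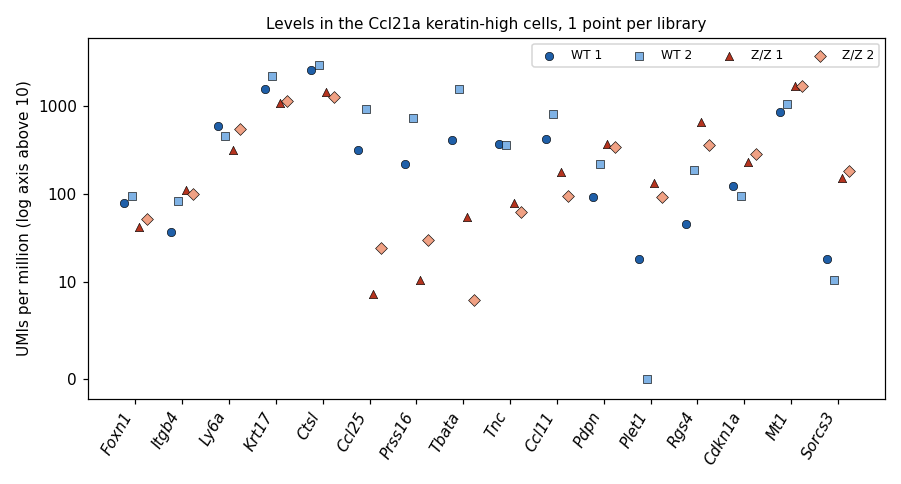
CPM of 16 named genes in the summed Ccl21a keratin-high cells of each library, 1 point per library, on an axis that is logarithmic above 10. WT points are blue and Z/Z points red, and of these genes Ly6a is the one whose groups overlap, while none passed the adjusted threshold.

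Of 10 tested genes in the list of chemokines and their scavenging receptors, 6 had a lower and 4 a higher value in Z/Z, and 0 passed the adjusted threshold. At an unadjusted p under 0.05, 5 were lower (all genes, 4.9%), one of them Ccl25, and 1, Cxcl9, was higher (all genes, 4.86%), with a median log2 fold change of -0.99 that became -0.22 without WT 2 and -0.32 without the 7 cells high in cortical transcripts. Ccl11, the eosinophil attractant eotaxin, had 417 and 803 CPM in WT and 177 and 94.6 CPM in Z/Z (-2.07, SE 0.42, edgeR adjusted p = 0.119), with no overlap, and was called lower by DESeq2 (adjusted p = 0.0117). It was lower without the 7 cells too, at -2.62. Ccl19, the second ligand of CCR7, had 261 and 1605 CPM in WT and 334 and 295 CPM in Z/Z (-1.46, SE 0.64, adjusted p = 0.504). Its difference came from WT 2, and without that library the fold change was 0.28. Cxcl10, an interferon-induced chemokine, had 2173 and 2992 CPM against 2074 and 1410.3 CPM (-0.52, SE 0.30, adjusted p = 0.59).

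The other lower genes were of the matrix and of unlike functions, and were named after their values were seen. Tnc, the matrix glycoprotein tenascin-C, had 371 and 365 CPM in WT and 78.8 and 62.1 CPM in Z/Z (-2.33, SE 0.32, edgeR adjusted p = 0.0665), and fell in the other Epcam-positive cells by 2.51 on the log2 scale (SE 0.47, adjusted p = 0.0297). Without the 7 cells high in cortical transcripts its fold change was -0.36. Cbr2, a carbonyl reductase, had 665 and 1042 CPM against 152 and 232 CPM (-2.10, SE 0.36, adjusted p = 0.106), and -0.24 without those cells. Grm8, a metabotropic glutamate receptor, had 335 and 271 CPM against 29.8 and 59.4 CPM (-2.79, SE 0.41, adjusted p = 0.0665), and -1.99 without them. Col19a1, a collagen of basement membrane zones, had 303 and 115 CPM against 31.5 and 13.5 CPM (-3.18, SE 0.55, adjusted p = 0.106), and -3.88 without them. Without those cells 17 of 81 and 4 of 35 Tnc UMIs were left in WT 1 and WT 2, and 43 of 145 and 10 of 100 Cbr2 UMIs. Krt17, a keratin of basal and stressed epithelium, had 1586 and 2231 CPM against 1078 and 1146 CPM (-0.73, SE 0.28, adjusted p = 0.444) and -0.70 without them.

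No gene of the lists for functions linked to medullary epithelium passed the adjusted threshold. Of 8 tested MHC class II genes, 5 were higher, 1 of these at an unadjusted p under 0.05, and 3 lower, with a median log2 fold change of 0.07. Of 12 MHC class I genes, 9 were lower, with a median of -0.20. B2m, the class I light chain, had 2448 and 2575 CPM in WT and 1724 and 1591 CPM in Z/Z (-0.56, SE 0.25, edgeR adjusted p = 0.513). Of 17 genes of lymphotoxin receptor and NF-kB signalling, the pathway on which medullary epithelium depends, 12 were higher, with a median of 0.23. Nfkbia, its feedback inhibitor, had 513 and 844 CPM against 1278 and 892 CPM (0.74, SE 0.34, adjusted p = 0.513), and 0.32 without the 7 cells high in cortical transcripts. Of 15 adhesion genes of the basement membrane, 6 were higher and 9 lower, with a median of -0.14, and of 14 FGF, EGF, BMP and Wnt genes 8 were higher and 6 lower, with a median of 0.15. Of 17 interferon-stimulated genes 9 were higher, with a median of 0.03. Of 18 immediate early genes, 13 were higher, with a median of 0.33, and 1 was higher and 1 lower at an unadjusted p under 0.05. Medians of the remaining lists with 5 or more tested genes were 0.05 for 11 basal and precursor genes, 0.20 for 6 pouch factors, -0.45 for 8 Notch genes, 0.05 for 10 genes of epithelial-to-mesenchymal transition and 0.31 for 7 metallothionein and glucocorticoid response genes. Most of these medians had no stable sign. Leaving out WT 1 gave 0.32 for the adhesion and 0.47 for the Notch genes, leaving out WT 2 gave 0.05 for MHC class I and -0.10 for the interferon genes, and leaving out Z/Z 1 gave -0.09 for the pouch factors and -0.29 for the transition genes. Of the medians in this paragraph, that of the NF-kB list was the one that kept its sign under every alternative run.

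Markers of other cell types were low. The 12 thymocyte markers summed to 45.8, 62.5, 17.5 and 51.3 CPM in WT 1, WT 2, Z/Z 1 and Z/Z 2. The 10 B-cell and myeloid markers summed to 4.58, 0, 105 and 10.8 CPM, and the value of Z/Z 1 came mainly from 58 Lyz2 UMIs of 1 cell. The 8 fibroblast markers summed to 87.1, 73.0, 121 and 111 CPM, mostly Dcn. The 6 endothelial markers summed to 4.58, 0, 47.3 and 32.4 CPM, higher in Z/Z, with Pecam1 at 33.3 and 29.7 CPM there, and Schwann and parathyroid markers to 0 to 13.8 CPM. The part of these transcripts in the genotype differences was not tested.

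The third comparison asked whether genotype differences in the Ccl21a keratin-high cells differed from those in the other Epcam-positive cells of the same libraries, by the interaction term of an edgeR model with a term for each library. Of 12055 genes tested, 117 passed (0.971%), and in 78 the log2 difference was more positive in the Ccl21a keratin-high cells and in 39 more negative. Part of these were sparse, since 37 of the 117 had a mean under 30 CPM over the 4 sums of the cells. The 5 genes with the smallest p at 30 CPM or more were mainly ones that fell in the other cells. Nrg1, neuregulin, a ligand of ErbB receptors, had 13.8, 10.4, 70.0 and 103 CPM in the cells, against 633, 607, 153 and 215 CPM in the other Epcam-positive cells. The differences were 2.74 and -1.62 on the log2 scale, and the interaction was 4.65 (SE 0.60, edgeR adjusted p = 0.00153). Syt1, the calcium sensor of synaptic vesicles, had 22.9, 0, 43.8 and 67.5 CPM against 1643, 1391, 155 and 279 CPM (interaction 4.87, SE 0.66, adjusted p = 0.00169). Both genes were far lower in the Ccl21a keratin-high cells than in the other cells in WT, and the gap was smaller in Z/Z.

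Gramd1b, a cholesterol transfer protein, had 73.3, 31.3, 68.3 and 159 CPM in the cells and 594, 568, 85.4 and 116 CPM in the other cells (interaction 3.57, SE 0.51, edgeR adjusted p = 0.00196). Dock10, an exchange factor for small GTPases, had 55.0, 73.0, 84.0 and 78.4 CPM against 411, 557, 66.1 and 103 CPM (3.05, SE 0.48, adjusted p = 0.00635). Slc35f1, a solute carrier, had the opposite pattern, with 124, 167, 78.8 and 40.5 CPM against 22.0, 34.9, 116 and 72.7 CPM (-2.92, SE 0.48, adjusted p = 0.00751). For Gramd1b the 2 genotypes overlapped in the Ccl21a keratin-high cells, where 1 cell gave 40 of the 59 UMIs of Z/Z 2 (67.8%), and in the other cells they did not. Since the other cells are a mixture of classes, a change in their makeup and a change within cells cannot be told apart there. Of the other Epcam-positive cells, 244 of 416 and 39 of 85 had an Aire or Fezf2 UMI in WT, and 98 of 1345 and 120 of 987 in Z/Z. Of the genes in the lists used here, Cxcl9, Lyz2, Avil, Ifi27 and Prss16 passed the interaction test, Lyz2 by the single cell named above and Prss16 with the 7 cells high in cortical transcripts included.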

How the data were processed

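The authors deposited UMI counts per gene and barcode from 10x Genomics 3′ libraries, made with Cell Ranger (version 7.01 in the submitters' processing notes) on mm10 with intronic reads counted, and not normalized. The sequencing saturation was used as the percent value the authors deposited with each library. Called barcodes of all 4 libraries were read and the rule was applied cell by cell. After the cells were chosen, 109 ribosomal protein and haemoglobin genes were left out of the tests. UMIs were summed per library over the cells, and libraries, not cells, were the replicates. Sums were compared by the quasi-likelihood F test of edgeR (4.0.16, with limma 3.58.1 under R 4.3.3), two-sided, after TMM scaling and filterByExpr, with Benjamini-Hochberg adjustment over all genes tested and a threshold of 0.05. DESeq2 (1.42.0) was an alternative. SE is the log2 fold change divided by the root of its F value. The genes of the rule were given as a description.

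Other Epcam-positive cells had at least 1 Epcam UMI, 0 UMIs of Ptprc and Pdgfra and were not kept by the rule. Doublets were scored with the Scrublet routine of scanpy 1.11.5, and the 3.9% highest per library were left out as an alternative only. Free RNA was read from barcodes with under 100 UMIs. Exact permutation tests and Clopper-Pearson intervals used scipy 1.17.1. In a test on simulated data for the comparison of the cells between genotypes, with 2 libraries against 2, the edgeR step called 26 of 90 genes changed by 4 times, 65 of 86 changed by 8 times and 0 of 4550 unchanged genes. The simulated dispersion was 0.15, against a common dispersion of 0.0523 fitted to the real sums. It did not simulate single cells that give most UMIs of a gene, so these rates are not those of the real comparison.

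Named genes were Foxn1 and the 5 markers, up to 4 members of each gene list, the called genes with the largest fold change (none passed), the 5 interaction genes with the smallest p among those with a mean of at least 30 CPM, and genes named after their values were seen, as said in the text. The members and the lists were chosen with earlier results of these data known. The study tested cells by rank-sum, which treats the cells of 1 library as independent and was not used. Groups came from the sample labels. Results of some genes are not reported here.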

Additional observations from a re-analysis of the deposited data

Results flagged for a closer look

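For 5 genes the difference between Z/Z and WT was not the same in the Ccl21a keratin-high cells as in the other Epcam-positive cells, by the test of that difference itself. The interaction on the log2 scale was 4.65 for Nrg1, 4.87 for Syt1, 3.57 for Gramd1b, 3.05 for Dock10 and -2.92 for Slc35f1. The edgeR adjusted p of Nrg1, Syt1 and Gramd1b stayed under 0.05 in 7 of 7 alternatives, with highest values of 0.00496, 0.00576 and 0.0081. Dock10 did so in 6 of 7, with adjusted p up to 0.181, and Slc35f1 in 5 of 7, with adjusted p up to 0.547. Nrg1 rested on 3 and 1 UMIs of the cells in WT, and Syt1 on 5 and 0. For Gramd1b, 1 cell gave 40 of the 59 UMIs of Z/Z 2.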

How the results depend on the processing

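The share of Ccl21a keratin-high cells was lower in Z/Z under all 11 alternatives, from -0.462 to -2.73 percentage points. Without single libraries the difference was -1.13 to -1.93. None of these alternatives left out the 7 cells high in cortical transcripts or dropped a limit of the rule. Against 0 genes higher and 0 lower, DESeq2 called 6 and 10, the fit with no filter on low counts 95 and 71, the replicate block 2 and 7, and the keratin limit per 10000 UMIs 1 and 5. DESeq2 size factors in edgeR, the rule on thinned cells and the Ccl21a limit of 30 per 10000 each called 1 gene lower. Leaving out single libraries gave 0 to 117 higher and 2 to 123 lower, the fewest without Z/Z 1 and the most without WT 2. Against 117 genes of the interaction, no filter gave 241, cells thinned to 3000 UMIs 35, and leaving out single libraries 17 (Z/Z 1) to 448 (WT 2), with 430 without WT 1. The cause of these changes was not tested, except that thinning left 4389 genes to test. The correlation of same-numbered deviations was -0.041 over 5002 genes. With 2 libraries per group, and WT 2 resting on 6 cells, this value cannot tell whether the replicate numbers pair the libraries.

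Foxn1 turned to 0.62 without the 7 cells high in cortical transcripts, a choice made after the data were seen. Without single libraries Ly6a ranged from -0.68 to 0.15, turning without WT 1 (0.03) and without Z/Z 1, and Ccl19 from -2.23 to 0.28, turning without WT 2. Of 407 values of 27 named genes under alternatives, 312 kept their direction and their side of the threshold, 91 passed it, and 4 turned, and 24 genes never turned. WT 2 had the fewest UMIs, 95936 from 6 cells.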
